A study of Arabidopsis thaliana with 6 samples.

Results

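The tryptophan-derived defence pathway of Arabidopsis thaliana leaves was described through 10 genes: the aldoxime-forming enzymes CYP79B2 and CYP79B3, the camalexin enzymes CYP71A12, CYP71A13, GSTF6, GGP1 and PAD3, and the regulators MYB34, MYB51 and MYB122. They were taken by locus, and all 10 were among the 26402 genes of the deposited table. The samples were whole leaves of wild-type Columbia plants grown for 4 weeks at 100 ppm CO2 (low CO2, 3 samples) or at 380 ppm CO2 (normal CO2, 3 samples). All plants had 16 h of light and 8 h of darkness at 21 °C and 70% relative humidity. The table gave RPKM (reads scaled to gene length and sequencing depth) in 1 column per CO2 level, so no value had a replicate spread and the CO2 effect was not tested.

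Camalexin is a sulfur-containing indole alkaloid and the main phytoalexin of Arabidopsis, an antimicrobial compound made on infection. CYP79B2 and CYP79B3 turn tryptophan into indole-3-acetaldoxime, from which one branch leads to camalexin and another, opened by CYP83B1, to the indole glucosinolates, sulfur-rich compounds stored in healthy leaves. In the camalexin branch CYP71A13 makes the nitrile, a glutathione adduct is formed and trimmed, and PAD3 closes the ring.

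The camalexin enzymes were lower at low CO2, while the shared entry enzymes, MYB34 and MYB51 lay closer to their levels at normal CO2. PAD3 differed most, at 29.1-fold lower. On the log2(RPKM + 1) scale, 4 of the 9 counted genes passed 2-fold downward and none passed it upward. Counted means a mean of at least 1 RPKM, and MYB122 lay under that. Over all 16563 counted genes 11.1% passed 2-fold downward and 6.07% upward. All 4 lower genes were among the 5 camalexin enzymes. The median log2 ratio was -0.97 over the 9 counted genes, the value of CYP71A12, and -0.06 over all counted genes. The first depends on the pseudocount, at -1.82 with 0.1 and -0.68 with 5.

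Reads were recovered from the RPKM values for all 10 genes. The columns had depths of 21887516 reads at low CO2 and 25429325 reads at normal CO2, and 1 read on 1 kb was worth 0.0457 RPKM at low CO2 and 0.0393 RPKM at normal CO2. Intervals in the text are 95% intervals from these reads. They cover counting error only and compare the columns, not the growth conditions, and in whole leaves fewer cells of a type cannot be told apart from less RNA per cell. Markers were read beside the leaf label. RBCS1A, of the Rubisco small subunit, stood at 24998.5 RPKM at low CO2 and 10462.5 RPKM at normal CO2, and 4 of 6 root markers (IRT1, CASP1, COBL9 and PRP3) were listed at 0 in both columns. The other two were detected, SCR at 12.2 RPKM at low CO2 and 12.7 RPKM at normal CO2, and GL2 at 1.90 RPKM at low CO2 and 1.42 RPKM at normal CO2. Of 6 flower and seed markers the highest was AG, at 0.786 RPKM at low CO2 and 1.92 RPKM at normal CO2.

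Promoter windows are shown for the genes on which the description turns. Each holds the 250 bases before the annotated gene start, on the gene's own strand, from RefSeq TAIR10.1. The windows were looked up by locus, since the authors' build is not given in the sources used here. PAD3, with the largest difference, is at chr3:9887667-9887916 on the plus strand. GGP1, the most abundant of the 10 genes at low CO2, is at chr4:14920126-14920375 on the plus strand. Both strands were searched for TTGAC, the core of the W-box that WRKY factors bind, and CACGTG, the core of the G-box that MYC factors bind, and capitals mark the matches.
PAD3: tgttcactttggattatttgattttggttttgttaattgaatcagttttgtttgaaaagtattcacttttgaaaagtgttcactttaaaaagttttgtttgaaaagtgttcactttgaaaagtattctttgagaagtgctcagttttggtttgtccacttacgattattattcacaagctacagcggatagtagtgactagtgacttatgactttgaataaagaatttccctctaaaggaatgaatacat
GGP1: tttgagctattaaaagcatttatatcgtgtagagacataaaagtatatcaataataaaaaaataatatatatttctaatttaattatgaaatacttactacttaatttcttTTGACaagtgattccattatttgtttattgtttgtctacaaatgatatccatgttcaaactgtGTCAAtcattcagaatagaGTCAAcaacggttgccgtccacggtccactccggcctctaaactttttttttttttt

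The PAD3 window held neither motif, which says only that these letters are not in it. GGP1 held 3 TTGAC matches, 139, 76 and 57 bases upstream. Of the 7 genes whose windows were used 2 held TTGAC (GGP1 and MYB51) and none held CACGTG. Over 23500 nuclear promoters of the same length 45.5% held TTGAC, 14.6% held it at least 2 times and 7.06% held CACGTG. CYP71A12 and CYP71A13 have no annotated bases before their coding start, so their windows were not used. A match is a description of the letters and not a binding site.

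The windows of the entry genes are shown because they share a stretch of sequence. CYP79B2 is at chr4:18524792-18525041 and CYP79B3 at chr2:9488163-9488412, both on the plus strand. Capitals mark the longest run of letters common to both.
CYP79B2: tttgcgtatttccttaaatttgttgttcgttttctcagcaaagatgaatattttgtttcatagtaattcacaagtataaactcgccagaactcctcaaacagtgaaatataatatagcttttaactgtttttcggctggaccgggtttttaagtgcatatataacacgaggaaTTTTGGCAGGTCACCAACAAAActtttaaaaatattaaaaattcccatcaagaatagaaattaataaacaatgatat
CYP79B3: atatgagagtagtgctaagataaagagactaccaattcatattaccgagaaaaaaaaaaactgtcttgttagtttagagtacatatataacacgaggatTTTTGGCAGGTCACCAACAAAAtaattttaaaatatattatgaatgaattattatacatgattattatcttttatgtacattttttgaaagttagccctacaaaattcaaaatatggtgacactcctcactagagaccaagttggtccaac

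The run was 22 bases long, began 77 bases upstream of CYP79B2 and 151 bases upstream of CYP79B3, and was found in 2 of 23500 windows on either strand, these same genes. It was chosen after the sequences had been seen, as the longest run common to both, so its presence in these 2 windows was fixed in advance. How often other runs of 22 bases recur was not tested. Neither window held TTGAC or CACGTG.

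The entry enzymes lay on both sides of equality. CYP79B2 (AT4G39950, chromosome 4, 18525042 to 18527602) was at 43.5 RPKM at low CO2 and 72.9 RPKM at normal CO2, from 1546 reads at low CO2 and 3008 reads at normal CO2. This was 1.67-fold lower (1.57 to 1.78). CYP79B3 (AT2G22330, chromosome 2, 9488413 to 9491404) was at 86.5 RPKM at low CO2 and 82.2 RPKM at normal CO2, a ratio of 1.05 (1.00 to 1.10). It was the only one of the 10 genes with a higher value at low CO2, and its interval began at 1.00. CYP79B3 therefore stood at 1.99 times the level of CYP79B2 at low CO2, against 1.13 times at normal CO2. Summed over both genes, which carry out the same reaction, the reads gave a ratio of 0.839 (0.807 to 0.871), with 130.0 RPKM at low CO2 and 155.1 RPKM at normal CO2. Their coding sequences were 81.5% identical and shared no stretch of 50 bases, so reads of that length could be told apart.

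**Figure D1:**
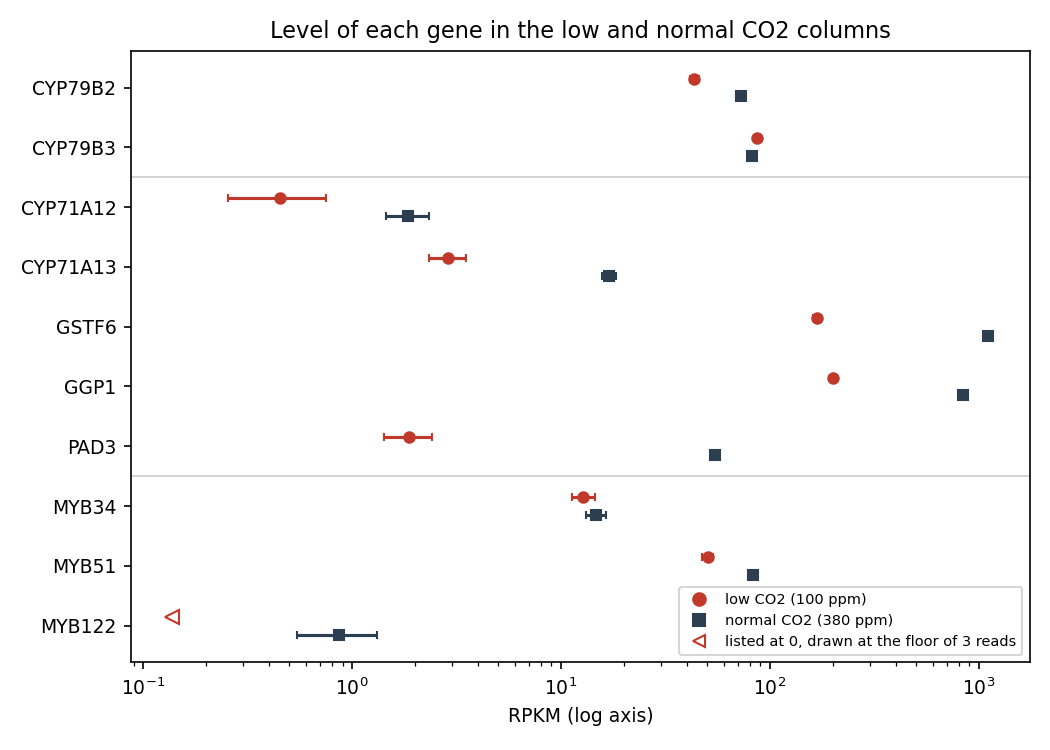
RPKM of the 10 genes on a log axis, ordered as entry enzymes, camalexin enzymes and MYB regulators, with low CO2 (circles) above normal CO2 (squares) for each gene. Bars are exact 95% Poisson intervals of the reads, hidden by the symbol where narrow, and the triangle puts MYB122, listed at 0 at low CO2, at its floor of 3 reads. PAD3 has the widest gap, at 1.86 RPKM at low CO2 and 54.3 RPKM at normal CO2, and CYP79B3 the narrowest, at 86.5 RPKM at low CO2 and 82.2 RPKM at normal CO2.

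CYP71A13 and CYP71A12 turn the aldoxime into indole-3-acetonitrile. CYP71A13 (AT2G30770, chromosome 2, 13109909 to 13111988) was at 2.88 RPKM at low CO2 and 17.0 RPKM at normal CO2, from 95 reads at low CO2 and 652 reads at normal CO2. It was 5.91-fold lower (4.76 to 7.41). CYP71A12 (AT2G30750, chromosome 2, 13099486 to 13101371) was at 0.454 RPKM at low CO2 and 1.85 RPKM at normal CO2, from 15 reads at low CO2 and 71 reads at normal CO2. Its RPKM ratio was 4.07-fold lower (2.31 to 7.66), but on the log2(RPKM + 1) scale its difference of -0.97 stayed inside 2-fold, and it passed with a pseudocount of 0.1 (-1.82). The intervals of these ratios overlapped. CYP71A13 was the more abundant, at 6.33 times the level of CYP71A12 at low CO2 and 9.18 times at normal CO2.

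The genes lie on the same strand 8537 bases apart, with 1 coding locus between them, and 90.4% of their aligned coding bases are identical. They shared 10 of 1445 stretches of 50 bases, 0.692%, with a longest common run of 59 bases. For both, the annotated coding length of 1491 bases gave no whole reads and a length of 1509 bases did, so the authors' gene models differed there from the reference. Summed over the pair the reads were 110 at low CO2 and 723 at normal CO2, 5.66-fold lower (4.62 to 6.98).

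GSTF6, a phi class glutathione transferase linked to the glutathione conjugation step, was the most abundant of the 10 at normal CO2. GSTF6 (AT1G02930, chromosome 1, 661088 to 662475) was at 168 RPKM at low CO2 and 1100.3 RPKM at normal CO2, from 2298 reads at low CO2 and 17459 reads at normal CO2. It was 6.54-fold lower (6.26 to 6.83). Its neighbour GSTF7, with no coding locus between them, was at 78.8 RPKM at low CO2 and 299 RPKM at normal CO2, 3.80-fold lower (3.56 to 4.06). The coding sequences are 94.7% identical and 17.3% of the 50-base stretches of GSTF6 also occur in GSTF7, so single values are uncertain. The summed reads of both were 3379 at low CO2 and 22232 at normal CO2, 5.66-fold lower (5.46 to 5.87).

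GGP1, a gamma-glutamyl peptidase, trims the glutathione adducts of both camalexin and glucosinolate synthesis. GGP1 (AT4G30530, chromosome 4, 14920376 to 14922519) was at 199.9 RPKM at low CO2 and 837 RPKM at normal CO2, from 3281 reads at low CO2 and 15957 reads at normal CO2. It was 4.19-fold lower (4.03 to 4.35). GGP3, a related peptidase gene 2887 bases away that also acts on such adducts, was at 45.9 RPKM at low CO2 and 42.8 RPKM at normal CO2, a ratio of 1.07 (0.971 to 1.19). The pair shared no stretch of 50 bases. GGP1 was the most abundant of the 10 genes at low CO2, at 1.19 times the level of GSTF6, against 0.760 times at normal CO2.

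PAD3, the cytochrome P450 CYP71B15, carries out the last steps to camalexin. PAD3 (AT3G26830, chromosome 3, 9887917 to 9889791) was at 1.86 RPKM at low CO2 and 54.3 RPKM at normal CO2, from 60 reads at low CO2 and 2030 reads at normal CO2. It was 29.1-fold lower (22.5 to 38.3), an interval that did not overlap that of any other counted gene of the 10. Only 0.193% of all counted genes had a lower log2 ratio, against 1.29% for GSTF6, 2.47% for CYP71A13 and 2.97% for GGP1. No 50-base stretch of PAD3 occurred in the coding sequence of another gene. The level of CYP79B2 was 23.3 times that of PAD3 at low CO2 and 1.34 times at normal CO2.

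**Figure D2:**
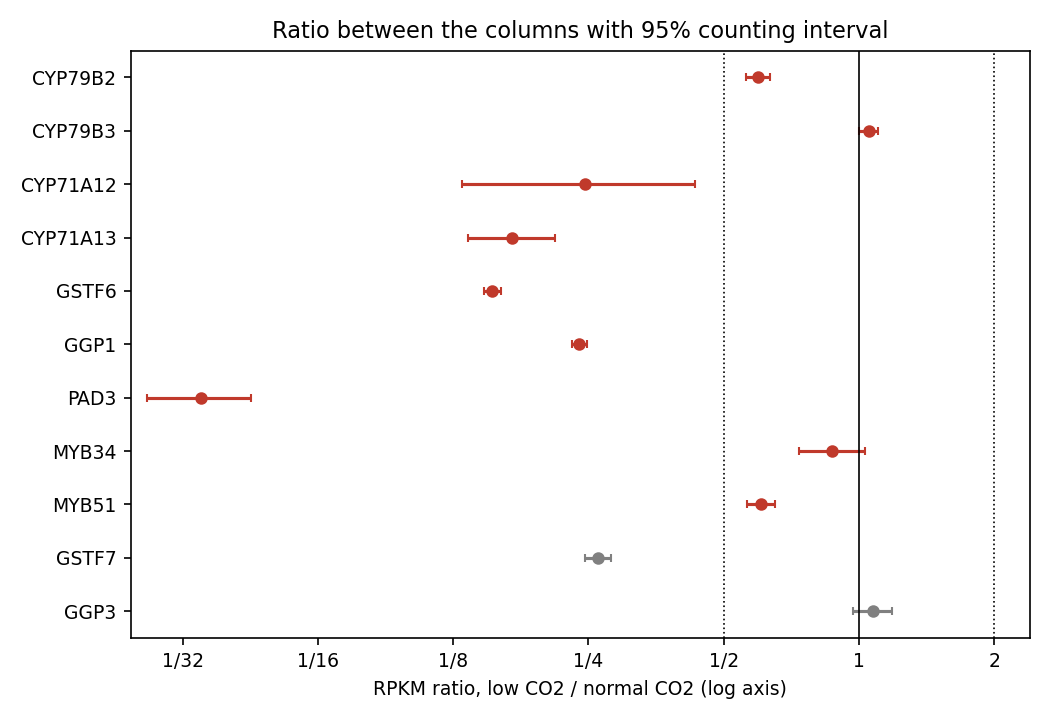
RPKM ratio of low over normal CO2 on a log axis for the 9 counted genes (red) and the relatives GSTF7 and GGP3 (grey), with 95% counting intervals. Dotted lines mark 2-fold and the solid line equality. The 5 camalexin enzymes lie beyond 2-fold lower, and CYP79B2, CYP79B3, MYB34 and MYB51 within 2-fold.

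The 3 MYB genes, whose products switch on indole glucosinolate synthesis, had lower values at low CO2 than at normal CO2. MYB34 (AT5G60890, chromosome 5, 24494291 to 24496371) was at 12.8 RPKM at low CO2 and 14.7 RPKM at normal CO2, from 248 reads at low CO2 and 331 reads at normal CO2. Its ratio of 0.870 (0.735 to 1.03) included equality. MYB51 (AT1G18570, chromosome 1, 6389399 to 6391386) was at 50.4 RPKM at low CO2 and 83.2 RPKM at normal CO2, from 1164 reads at low CO2 and 2233 reads at normal CO2, 1.65-fold lower (1.54 to 1.77). MYB51 was the most abundant of the 3 in both columns, at 3.93 times the level of MYB34 at low CO2 and 5.65 times at normal CO2.

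MYB122 (AT1G74080, chromosome 1, 27855578 to 27857598) was listed at 0 at low CO2 and stood at 0.866 RPKM, 22 reads, at normal CO2. Its value at normal CO2 was 6.31 times a floor of 3 reads in the low CO2 column, 0.137 RPKM. With the counting error of both columns its ratio had an upper bound of 0.212, at least 4.71-fold lower. Such a 0 may also stand for an estimate that failed. The summed reads of the 3 genes were 1412 at low CO2 and 2586 at normal CO2, a ratio of 0.634 (0.594 to 0.677).

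The order of levels differed between the columns. At low CO2 it ran GGP1, GSTF6, CYP79B3, MYB51, CYP79B2, MYB34, CYP71A13, PAD3, CYP71A12 and MYB122. At normal CO2 it ran GSTF6, GGP1, MYB51, CYP79B3, CYP79B2, PAD3, CYP71A13, MYB34, CYP71A12 and MYB122. Neighbours with overlapping counting intervals were CYP71A13 and PAD3 at low CO2, and MYB51 with CYP79B3 and CYP71A13 with MYB34 at normal CO2. Of the 9 counted genes, 5 had their whole counting interval of the ratio below 1/2, as did 9.52% of 16095 counted genes with reads recovered at the annotated length. CYP71A12 and CYP71A13 were among the 5 but, with searched lengths, not among the 16095, so the 2 shares are not fully alike. At these depths counting error was small beside most differences, and the spread between plants is not in it.

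**Figure D3:**
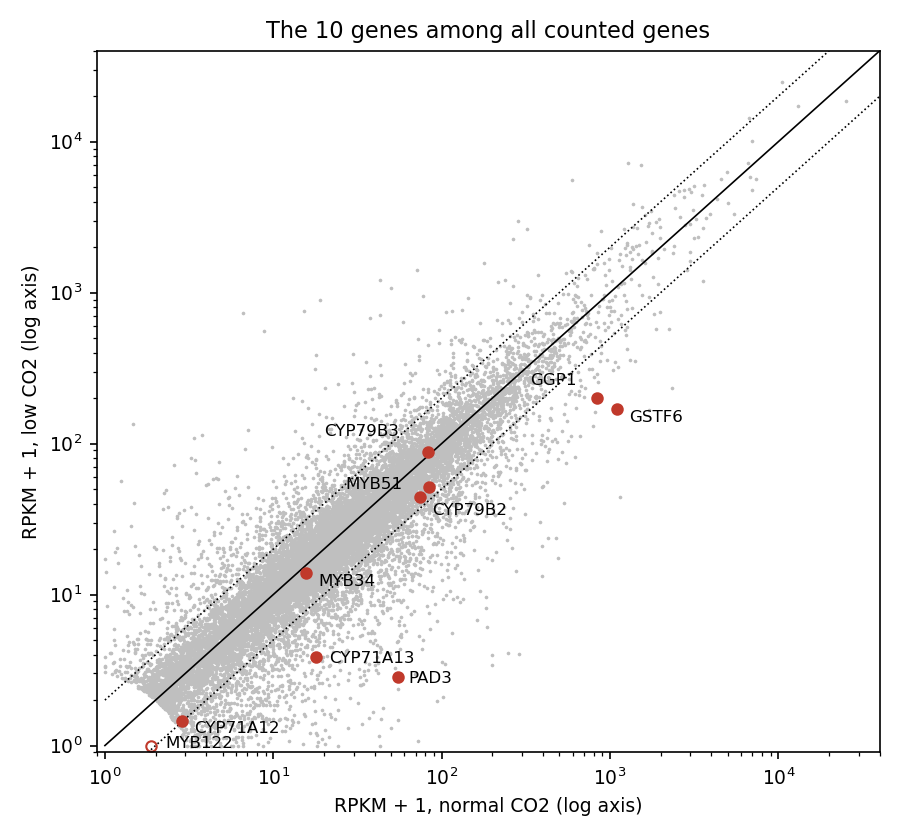
RPKM + 1 at low CO2 against RPKM + 1 at normal CO2, both on log axes, for all 16563 counted genes (grey) and the 10 genes (red, with MYB122 open because it was not counted). The solid line is equality and dotted lines are 2-fold. PAD3, CYP71A13, GSTF6 and GGP1 lie below the lower dotted line, and CYP79B3 lies just above the solid line.

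Genes of the surrounding pathways were read in lists chosen by known role, but with earlier results of these data known. Of 90 genes in 11 lists 87 were in the table and 75 were counted. Of the counted genes 36 passed 2-fold downward at low CO2, 3 passed it upward and 36 did not reach it, beside the 11.1% and 6.07% of all counted genes. The median log2 ratio of the 75 was -0.96.

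Among 6 counted regulators of camalexin synthesis 4 were at least 2-fold lower, with a median of -1.17. WRKY33, a transcription factor that binds the PAD3 promoter, was at 36.8 RPKM at low CO2 and 162 RPKM at normal CO2, a ratio of 0.227 (0.213 to 0.241). ANAC042, a NAC factor of camalexin induction, was at 0.498 RPKM at low CO2 and 11.1 RPKM at normal CO2, a ratio of 0.0451 (0.0204 to 0.0871). The kinase genes MKK9 and MKK5 had ratios of 0.427 (0.40 to 0.455) and 0.448 (0.40 to 0.501). MPK3 was not analysed here.

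Of 10 counted other enzymes and transporters of the camalexin branch 3 passed 2-fold downward and the other 7 did not reach 2-fold, for a median of -0.57. ABCG40, a transporter of the plasma membrane, was at 1.51 RPKM at low CO2 and 32.2 RPKM at normal CO2, a ratio of 0.0469 (0.0393 to 0.0555). The camalexin exporter gene ABCG34 had a ratio of 0.408 (0.380 to 0.438) and the gamma-glutamyl transpeptidase gene GGT1 one of 0.430 (0.398 to 0.464).

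The core steps from the aldoxime to indole glucosinolates were also lower, in 4 of 6 counted genes and with a median of -1.37. CYP83B1, which draws the aldoxime into this branch, was at 221 RPKM at low CO2 and 588 RPKM at normal CO2, a ratio of 0.375 (0.365 to 0.385). The lyase gene SUR1 had a ratio of 0.394 (0.376 to 0.412), the glucosyltransferase gene UGT74B1 0.296 (0.276 to 0.317) and the sulfotransferase gene SOT16 0.299 (0.280 to 0.319). The 2 genes within 2-fold were the glutathione transferase genes GSTF9, at 0.723 (0.705 to 0.740), and GSTF10, at 1.18 (1.14 to 1.21), named after their values were seen.

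Among 8 counted genes that decorate the indole ring 3 passed 2-fold, all downward, and the median was -0.84. They were the methyltransferase genes IGMT2, with a ratio of 0.112 (0.0725 to 0.167), IGMT1, 0.193 (0.127 to 0.283), and IGMT3, 0.267 (0.198 to 0.355). IGMT4, the abundant relative, was at 206 RPKM at low CO2 and 402 RPKM at normal CO2, and was named after its values were seen. Its ratio was 0.513 (0.496 to 0.530), from 5047 reads at low CO2, against 27 reads for IGMT2. Sequence shared among the IGMT genes was not checked, so the single values of the scarce ones are uncertain. Of 6 counted genes listed under breakdown and use 4 were at least 2-fold lower, with a median of -1.23. All 4 were genes of the nitrilase family, and the part of each in indole glucosinolate breakdown was not tested. NIT1 was at 570 RPKM at low CO2 and 1879 RPKM at normal CO2 and NIT4 at 101 RPKM at low CO2 and 229 RPKM at normal CO2. NIT2 was at 1.89 RPKM at low CO2 and 21.9 RPKM at normal CO2, and NIT3 at 2.82 RPKM at low CO2 and 8.30 RPKM at normal CO2. Sequence shared among the nitrilase genes was not checked either, so the single values of NIT2 and NIT3 are uncertain. Of 5 genes listed with the branch to hydroxyindole carbonyl nitriles only 2 were counted, and whether each acts in that branch was not tested. FOX1 was at 0.626 RPKM at low CO2 and 6.15 RPKM at normal CO2, and AAO1 at 5.01 RPKM at low CO2 and 8.44 RPKM at normal CO2.

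Tryptophan synthesis, which feeds the pathway, had 4 of 13 counted genes past 2-fold downward and 1 upward, and a median of -0.72. TSB2, a tryptophan synthase beta gene, had a ratio of 0.232 (0.189 to 0.281) and ASB1, of anthranilate synthase, 0.275 (0.251 to 0.302). IGPS, an indole-3-glycerol phosphate synthase gene, had a ratio of 0.425 (0.396 to 0.457). PAI2, a phosphoribosylanthranilate isomerase gene, was the higher one at 2.34 (1.76 to 3.13), with a near copy in PAI1. PAI1 went the other way, with a ratio of 0.660 (0.464 to 0.932). Sequence shared by the pair was not checked, so their single values are uncertain. The list from tryptophan to auxin had none of 6 counted genes 2-fold lower and 1 higher, with a median of 0.44. YUC9, an auxin synthesis gene, was not on this list and was named after its values were seen. It was at 0.398 RPKM at low CO2 and 1.84 RPKM at normal CO2, a log2 ratio of -1.02, past 2-fold downward. TAR2, a tryptophan aminotransferase gene, was at 12.8 RPKM at low CO2 and 3.84 RPKM at normal CO2, a ratio of 3.32 (2.71 to 4.09).

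The aliphatic glucosinolate core, made from methionine and not from tryptophan, had 7 of 8 counted genes at least 2-fold lower and a median of -1.52, so lower values were also seen outside the indole branch. CYP79F1, the aliphatic counterpart of CYP79B2, was at 66.1 RPKM at low CO2 and 314 RPKM at normal CO2, and CYP79F2 at 3.63 RPKM at low CO2 and 18.9 RPKM at normal CO2. Sequence shared by CYP79F1 and CYP79F2 was not checked, so the single values of CYP79F2 are uncertain. GSTF11 had a ratio of 0.123 (0.0933 to 0.159) and SOT18 one of 0.316 (0.290 to 0.344). Of the 6 MYB and MYC partners 3 passed 2-fold downward and 1 upward, and the median was -0.75. MYC2, a factor that pairs with these MYB proteins, was at 16.6 RPKM at low CO2 and 185 RPKM at normal CO2, a ratio of 0.0894 (0.0826 to 0.0967), and MYC3 had one of 0.439 (0.414 to 0.465). MYB29 had a ratio of 0.423 (0.373 to 0.478), whereas MYB28, the main aliphatic regulator, was higher, at 280 RPKM at low CO2 and 113 RPKM at normal CO2.

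Of 4 counted phi class relatives of GSTF6 3 were at least 2-fold lower, with a median of -1.45. GSTF2 was at 419 RPKM at low CO2 and 1268 RPKM at normal CO2, and GSTF3, a near copy of it, at 1.80 RPKM at low CO2 and 5.94 RPKM at normal CO2. GSTF7, described above, was the other. GSTF3 had 25 reads at low CO2 and 96 reads at normal CO2. Sequence shared by GSTF2 and GSTF3 was not checked, so the single values of the scarce GSTF3 are uncertain.

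**Figure D4:**
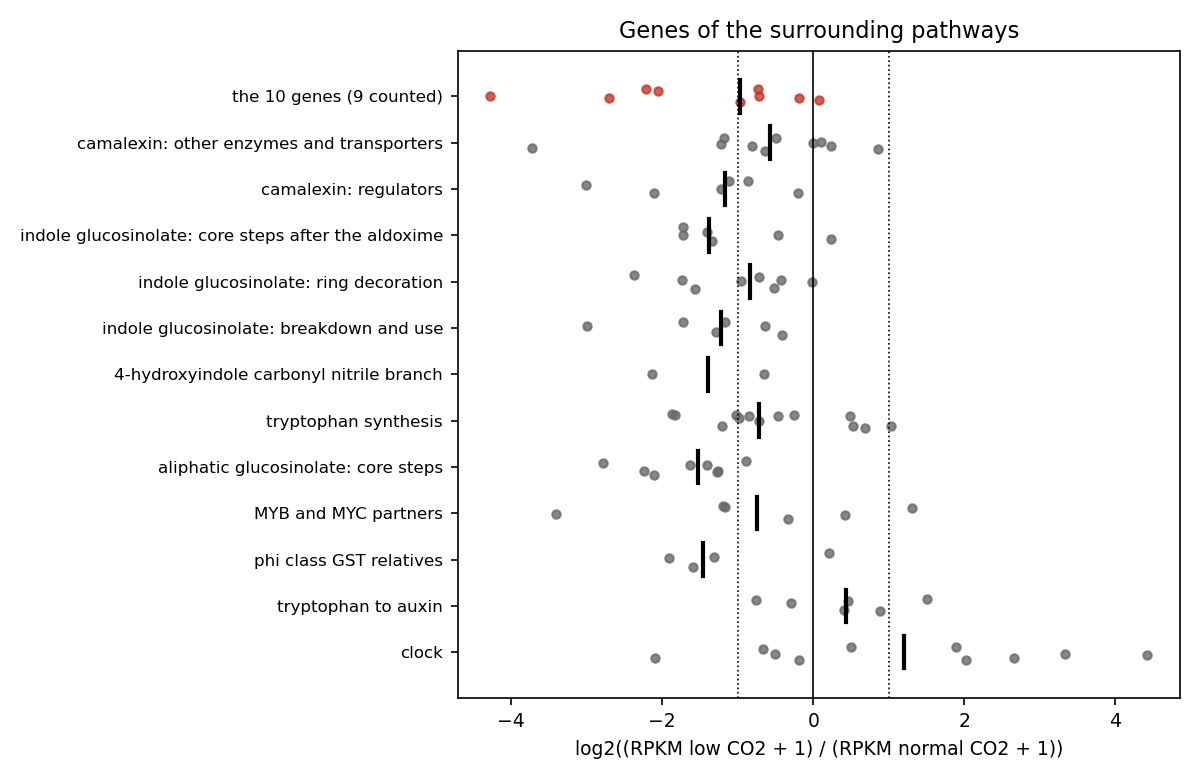
Log2 ratio of RPKM + 1, low over normal CO2, of the counted genes among the 10 (red) and in each list (grey). Vertical bars are medians and dotted lines mark 2-fold. The medians of the 10 genes and of 10 of the 11 pathway lists lie below 0, and those of the auxin list (0.44) and the clock list (1.20) above.

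Clock genes differed between the same columns, and the hour of harvest is not given in the sources used here. Of 10 counted clock genes 5 passed 2-fold upward at low CO2 and 1 downward. PRR5 was at 48.0 RPKM at low CO2 and 1.297 RPKM at normal CO2, and ELF4 at 59.96 RPKM at low CO2 and 5.08 RPKM at normal CO2. LUX was at 16.5 RPKM at low CO2 and 1.79 RPKM at normal CO2, and PRR9 at 0.781 RPKM at low CO2 and 6.58 RPKM at normal CO2. Their part in the values of the 10 genes was not tested. The summed level of 5 mesophyll markers was 55706 RPKM at low CO2 and 25548 RPKM at normal CO2, and that of 6 markers of epidermis, guard cells and phloem was 616 RPKM at low CO2 and 624 RPKM at normal CO2. No mesophyll marker was 2-fold lower and 4 of 5 were 2-fold higher, and their part in the result was not tested either. Their ratios ran from 1.10 for RCA to 8.60 for CA1. All 5 are photosynthesis genes, and the share of each cell type was not measured.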

How the data were processed

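Whole-leaf RNA was sequenced from TruSeq libraries, per the labels' protocols. The authors deposited RPKM values in 1 column per CO2 level. FastQC, TopHat and Cufflinks are named, without versions, in the submitters' processing notes. Build, annotation, strand, counting and the pooling of replicates are not given in the sources used here, so each column was read as the authors' value for its group of 3 samples. The planned limma test could not be run, because there is 1 column per group and neither names a replicate, so it cannot be told if a column is 1 library or a pool.

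Reads were recovered as RPKM × coding length (stop codon left out) × depth. The depth was taken from the commonest product, that of 1 read. Of 21010 genes above 0, 96.4% came out whole in both columns to within 0.0001 reads (1.47% with the stop codon kept). For CYP71A12, CYP71A13 and PRR5 the single length within 25% of the annotated one that gave whole reads was used. The step was run on reads simulated with the same depths, annotated lengths and formula. That checks the calculation only, not whether the formula holds for the deposited values. Genes with a searched length were not in the simulation. Ratio intervals are exact Clopper-Pearson intervals of the low CO2 share of reads, scaled by depth. Differences were called at 2-fold on log2(RPKM + 1) where the mean reached 1 RPKM. Lengths, names, positions and sequences came from RefSeq TAIR10.1, which holds 25802 of the 26402 loci. One promoter window is not reported here.

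The 10 genes and the lists were chosen with earlier results of these data known. All 10 genes were described, and from each list up to 4 genes past 2-fold, or the 2 most abundant where none passed. With 2 columns no gene could be named for likeness of pattern. Alternatives were other pseudocounts, filters and scalings and each gene of a summed pair alone. Python 3.11.15, scipy 1.17.1, pandas 2.3.3, Biopython 1.88 and matplotlib 3.10.9 were used.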

Additional observations from a re-analysis of the deposited data

How the results depend on the processing

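The 4 genes at least 2-fold lower were PAD3, CYP71A13, GSTF6 and GGP1. The count stayed at these 4 of 9 with a pseudocount of 5 (7.09% of all genes lower), median scaling (9.89%) and quantile normalization (9.64%). It was these 4 of 10 with no filter (9.08%) and 4 of 8 with a mean of at least 5 RPKM (10.6%). It was 5 of 9, with CYP71A12 added, with a pseudocount of 0.1 (12.7% of all genes lower) and for plain RPKM ratios (12.9%), and 6 of 10, with MYB122, for plain ratios with no filter (17.8%). Both plain-ratio settings were chosen after seeing the data. None of the 10 was 2-fold higher under any of these. Of the pathway lists, 28 of 75 genes with a pseudocount of 5 (7.09% of all genes lower) to 40 of 80 for plain ratios with no filter (17.8%) were at least 2-fold lower, and 2 or 3 higher. The median of the counted genes among the 10 lay between -0.68 with a pseudocount of 5 and -2.05 for plain ratios with no filter. Quantile normalization shifted the median of all genes by 0.11 on the log2 scale, and CYP79B3 stood at 0.16 and MYB34 at -0.09 under it. Taken alone and not summed, the ratios were 0.597 for CYP79B2 and 1.05 for CYP79B3. They were 0.245 for CYP71A12 and 0.169 for CYP71A13, and 0.153 for GSTF6 and 0.263 for GSTF7. The median of the auxin list was 0.22 with a pseudocount of 5, 0.19 with no filter, -0.0022 with neither filter nor pseudocount, and 1.19 under the stricter filter of 5 RPKM. Under that filter those of the MYB and MYC partners and the clock were -1.17 and 1.90. No paired analysis was possible because the columns carry no replicate numbers, and leaving out each replicate was not run for the same reason. With 15 reads at low CO2 for CYP71A12 and 0 for MYB122, depth limits those ratios most.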
